A study of Mus musculus with 39 samples.

Results

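The genes described here encode the 7 subunits of the FOS and JUN families of the transcription factor AP-1: Fos, Fosb, Fosl1, Fosl2, Jun, Junb and Jund. They were chosen by gene symbol, and all 7 were found among the 30012 gene names of the count table and passed the filter on low counts. The cells were mouse lung fibroblasts from wild-type C57BL/6 animals. They were obtained by AutoMACS depletion of cells that carried CD45, CD31, EpCAM, CD146 or Ter119, grown through passages, and kept without serum for 24 h. Complement C1q was then added at 1, 10 or 100 µg/ml, and RNA was taken at 2, 24, 48 or 72 h. Untreated cells were taken at 0 h, and each of the 13 groups held 3 libraries. No untreated or buffer group of a later time was analysed here. In every difference from untreated cells, the effects of C1q, of time in culture and of any handling that differed between times cannot be told apart. The labels do not say whether the 3 libraries of a group came from separate cultures or animals, so the p-values reflect only how much such libraries differ, which may be technical variation.

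AP-1 is a dimer. FOS proteins (Fos, Fosb, Fosl1 and Fosl2) need a partner to bind DNA, whereas JUN proteins (Jun, Junb and Jund) also bind as pairs with one another or with ATF and MAF family proteins. Several of these genes are immediate early genes, which serum, growth factors and stress switch on within minutes without new protein synthesis, through MAP kinases, serum response factor and CREB, and whose mRNAs are short-lived. In fibroblasts AP-1 is known for its part in proliferation, migration and the transcription of matrix-degrading enzymes and cytokines.

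The 150 bases upstream of 3 of the genes, Fos, Jun and Junb, are shown as examples. At 2 h with 1 and 10 µg/ml, Fos was called lower where Jun and Junb were called higher. Sequences are from RefSeq on GRCm38, 5′ to 3′ on the gene's strand, ending at the base before the gene's start, outside the gene's annotated bounds. Capitals mark TGACG (the core of a CREB site), TGACNTCA (a CRE-like AP-1 site), an MEF2-type site (CTA, any 4 bases, TAG) and TATAAA.

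Fos, chr12:85473740-85473889, plus strand: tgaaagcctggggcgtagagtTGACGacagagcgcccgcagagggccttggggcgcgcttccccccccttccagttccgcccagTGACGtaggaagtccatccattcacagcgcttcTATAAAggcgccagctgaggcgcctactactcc
Jun, chr4:95052223-95052372, minus strand: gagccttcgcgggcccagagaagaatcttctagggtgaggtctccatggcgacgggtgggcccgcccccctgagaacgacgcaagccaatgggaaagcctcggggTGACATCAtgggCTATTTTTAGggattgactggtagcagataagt
Junb, chr8:84978749-84978898, minus strand: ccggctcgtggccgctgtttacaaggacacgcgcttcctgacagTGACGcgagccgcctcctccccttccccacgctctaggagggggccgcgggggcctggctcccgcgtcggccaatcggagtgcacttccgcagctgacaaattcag

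The promoter table held 6 of the 7 genes, all except Fosl1. Motifs were searched on both strands over the 250 bases before each start, and TGACG may lie inside a TGACNTCA match. TGACG was found in Fos, Fosb and Junb and in 17.8% of the 32851 promoters of the table. The Fosb match starts 60 bases before the start used for that gene and lies inside the gene's annotated bounds. The match TGACATCA of Jun starts 45 bases before the gene, and TGACNTCA was found in 7.49% of promoters. CTATTTTTAG starts 33 bases before Jun, and the MEF2-type pattern was found in 3.2% of promoters. TATAAA was found in Fos alone of the 6 and in 12.4% of promoters. The classical AP-1 site TGANTCA was found in 6.75% of promoters and the CArG box, bound by serum response factor, in 1.47%. Neither was found in these windows of the 6 genes. Sites further upstream were not searched, so this does not show that the genes lack them. A match is a description of letters and not a measured site.

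Library totals ran from 1806106 to 3012518 counts, and the 14419 genes tested held 99.4% of all counts. All 8 fibroblast markers were detected in every group, and their summed level ran from 5260 to 9340 CPM (counts scaled to library size with edgeR's trimmed mean of M-values, TMM). Markers of other cells were also present: the summed level of 10 macrophage markers was 243 to 266 CPM in untreated cells, 545 to 754 at 48 h and 867 to 1500 at 72 h, with none at 0 in any group. The 7 epithelial markers fell from 475 to 555 CPM in untreated cells to 83.2 to 118 at 72 h, and 8 cell cycle genes from 1150 to 1250 to 202 to 270. The 4 mesothelial markers were at 203 to 222 CPM in untreated cells and 258 to 471 at 72 h, the 6 mural markers at 57.8 to 125 in all libraries and the 6 endothelial markers at 38.1 to 95. In such bulk libraries fewer cells of a type and less RNA per cell cannot be told apart. 1 row, LOC118568312, took 6.1 to 14.1% of the counts of a library. The third library at 1 µg/ml and 24 h stood apart from the others of its group, with a chi-square per degree of freedom of 8.02 and 8.48 against them, where no other pair of replicates exceeded 4.34. Without it, Fosl1 and Fosl2 at that dose and time were still called, at -1.8 and 0.43 log2 (edgeR adjusted p 0.000383 and 0.0152), and the calls of the steps from 2 to 24 h and from 24 to 48 h were the same for all 7 genes.

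Against untreated cells, the AP-1 genes changed most widely at 2 h and again at 48 h, and less so at 24 and 72 h. A gene was called where edgeR's quasi-likelihood F test gave a Benjamini-Hochberg adjusted p under 0.05 over all genes tested. The 12 comparisons share the 3 untreated libraries. At 2 h and 1 µg/ml, 6 of the 7 genes were higher and 1 was lower, where 4.28% and 1.87% of all tested genes were called in those directions. The counts were again 6 and 1 at 10 µg/ml, against 7.64% and 5.1%, and 3 and 1 at 100 µg/ml, against 3.14% and 2.02%. The calls over all genes behind these shares fell from 887 to 567 at 1 µg/ml without the first untreated library, and from 744 to 466 or 475 at 100 µg/ml without the second untreated library or its own second library. At 24 h 1 gene was higher and 1 lower at each dose. In order of dose 10.9%, 12.5% and 16.8% of all genes were higher and 14.3%, 15.3% and 19.9% lower, shares near those of the members. At 48 h 5, 5 and 3 genes were higher at 1, 10 and 100 µg/ml, against 16%, 17% and 19.1% of all genes, and 1 was lower at each dose, against 17.1%, 17.5% and 20.9%. At 72 h 0, 1 and 1 genes were higher, against 18.1%, 19.3% and 22.5% of all genes, and 2 were lower at each dose, against 20.1%, 20.6% and 23.3%, again shares near the background. The median log2 difference of the 7 genes was 0.72, 1.06 and 0.37 at 2 h and 0.56, 0.56 and 0.54 at 48 h in order of dose, where the median over all tested genes lay between -0.03 and 0.04. The 0.54 at 48 h and 100 µg/ml was the value of Fosb, which rested on few counts and was not called (SE 0.65, edgeR adjusted p 0.534). It does not show that the members responded alike at the 3 doses.

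**Figure D1:**
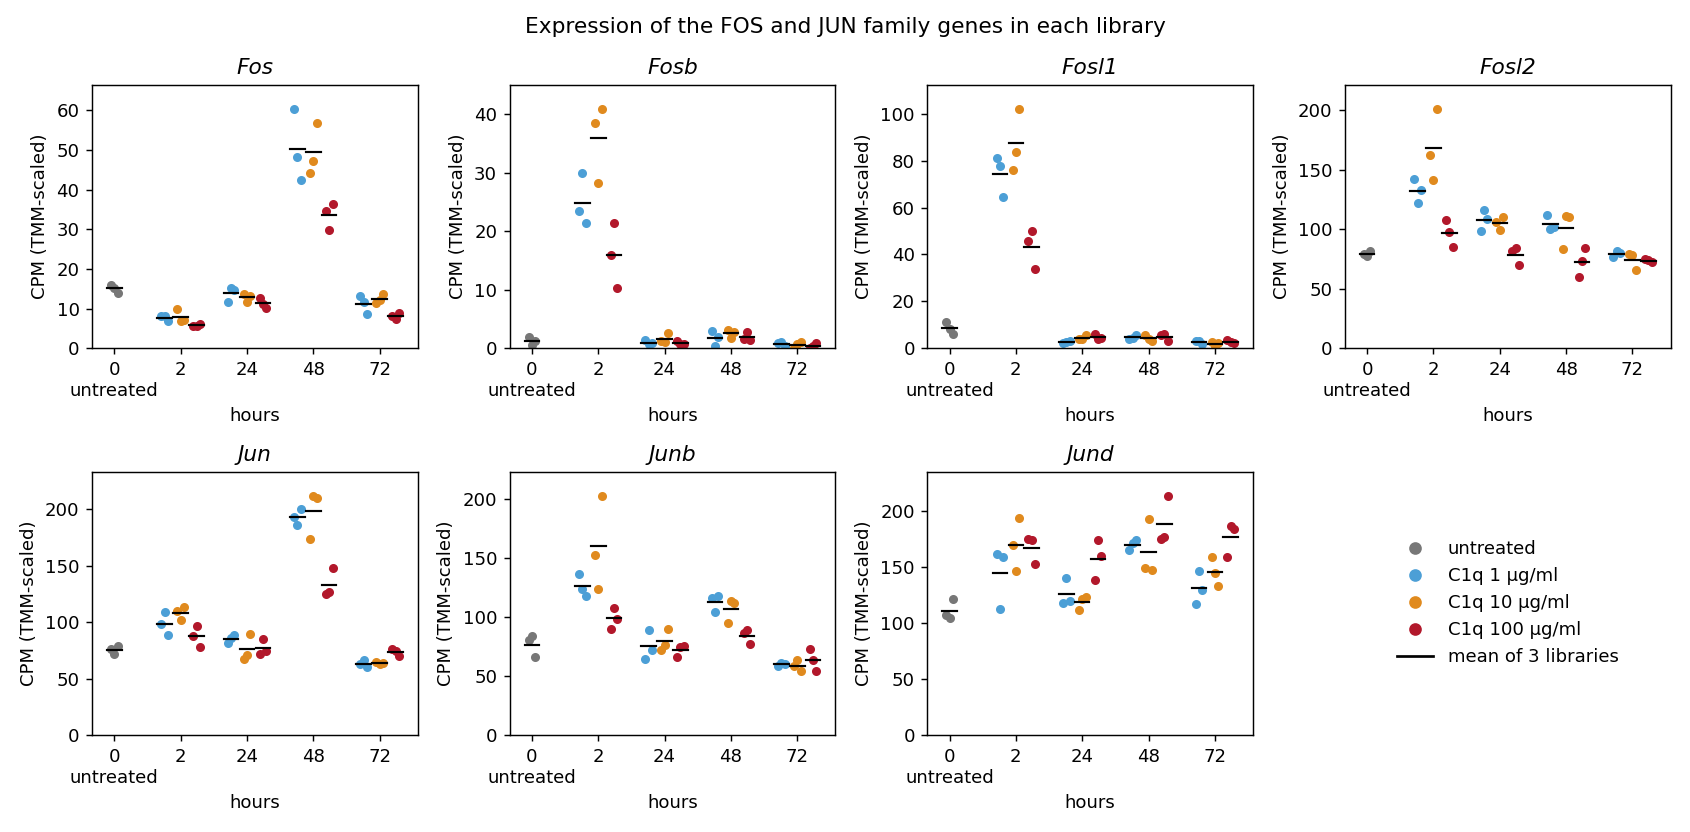
Expression of the 7 genes in every library, in TMM-scaled CPM on linear axes that start at 0, by hours and dose; points are libraries and bars are means of 3. Fosb and Fosl1 stand high at 2 h only, Fos and Jun stand highest at 48 h, and Fos at 2 h lies below all 3 untreated libraries.

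Fosl1, which encodes FRA-1, a FOS protein that lacks the C-terminal transactivation domain of Fos, was high at 2 h only. Untreated libraries had 11.2, 8.42 and 5.96 CPM. At 2 h the libraries had 80.9, 77.6 and 64.5 CPM with 1 µg/ml, 76, 83.8 and 102 with 10 µg/ml, and 45.8, 50.2 and 34 with 100 µg/ml. All 9 treated libraries lay above all untreated ones, and all libraries at 100 µg/ml lay below those of the lower doses. The log2 difference from untreated cells was 3.33 ± 0.19 (SE, n = 3 against 3) at 10 µg/ml and 2.34 ± 0.2 at 100 µg/ml (edgeR adjusted p 8.95e-19 and 5.07e-12). Each SE of a log2 difference comes from the fit of all 39 libraries, with a spread shared by the groups, and not from the compared libraries alone.

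From 24 h on Fosl1 was below its untreated level. The 9 libraries of each time ran from 2.15 to 5.94 CPM at 24 h (median 4.02), from 2.99 to 6.35 at 48 h (median 4.44) and from 1.07 to 3.55 at 72 h (median 2.73). The groups overlapped with untreated cells only at 48 h and 100 µg/ml. All 9 comparisons of these times were called lower, with log2 differences from -2.03 ± 0.35 (10 µg/ml, 72 h; edgeR adjusted p 7.64e-06) to -0.76 ± 0.31 (100 µg/ml, 48 h; adjusted p 0.0497). The calls at 72 h and that at 24 h and 1 µg/ml (-1.71 ± 0.34, adjusted p 0.000117) held in every alternative that gave a value. The other 5 were lost without the first untreated library, which had the highest level of the 3 (edgeR adjusted p 0.117 to 0.302). Leaving out the first or second library at 10 µg/ml and 24 h gave adjusted p 0.0621 and 0.072, and the second or the third at 100 µg/ml and 24 h gave 0.076 and 0.0591. At 48 h, adjusted p was 0.1 and 0.0696 without the first or second library at 1 µg/ml. At 100 µg/ml and 48 h it was 0.0536 and 0.252 without the first or the third, and 0.0663 without the second untreated library. Fosl1 shares 2767 bases with Ccdc85b on the opposite strand, and whether counting used strand is not given in the sources used here. The level of Ccdc85b was 53.3 ± 6.94 CPM in untreated cells (SD, n = 3) and 63.8 ± 5.91 at 2 h and 10 µg/ml.

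Fosb, whose protein has a long and a truncated form, rested on few counts outside 2 h. Untreated libraries had 5, 1 and 3 counts. At 2 h there were 66, 69 and 63 counts with 1 µg/ml, 110, 61 and 80 with 10 µg/ml and 36, 53 and 19 with 100 µg/ml. Every library of 2 h thus stood above every other library of the series. In CPM the means were 1.27 ± 0.739 untreated and 24.9 ± 4.45, 35.9 ± 6.72 and 15.9 ± 5.52 at 2 h (SD, n = 3), with adjusted p 7.53e-12, 2.27e-14 and 1.46e-08 by edgeR. From 24 h on no library had more than 8 counts and no comparison with untreated cells was called. At 72 h the counts were 2, 3 and 1, then 0, 2 and 3, then 0, 1 and 2 in order of dose, where a count of 0 allows up to 3. Any log2 value of Fosb at 72 h below is a fitted one that rests on these counts and depends on how zeros are treated.

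Fosl2, which encodes FRA-2, was expressed in untreated cells and changed less. Untreated libraries had 79, 77.9 and 81.7 CPM. At 2 h the libraries had 142, 122 and 133 CPM with 1 µg/ml, 162, 141 and 201 with 10 µg/ml, and 108, 98 and 84.9 with 100 µg/ml. All 9 lay above the untreated libraries, but the difference passed the test only at 1 and 10 µg/ml (0.73 ± 0.12 and 1.07 ± 0.12 log2, edgeR adjusted p 1.4e-05 and 1.33e-09). At 100 µg/ml it was 0.29 ± 0.12 (adjusted p 0.188, and 0.0464 when only the libraries compared were fitted). At 24 h Fosl2 was still higher at 1 and 10 µg/ml (0.44 ± 0.12 and 0.4 ± 0.12, adjusted p 0.00506 and 0.00894) and at 48 h likewise (0.39 ± 0.12 and 0.34 ± 0.12, adjusted p 0.00893 and 0.024). The calls at 48 h rested on single libraries. At 1 µg/ml adjusted p was 0.0526 without its first library and 0.0543 and 0.0589 without the first or second untreated one. At 10 µg/ml it was 0.211 and 0.185 without its second or the third library and 0.107, 0.115 and 0.08 without each untreated library in turn. At 72 h Fosl2 was between 65.4 and 81.7 CPM in all 9 libraries, and no comparison was called.

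Fos, the founding member and a textbook immediate early gene, moved against the rest of the family at 2 h and peaked at 48 h. Untreated libraries had 16, 15.3 and 14 CPM. At 2 h the libraries had 8.16, 8.24 and 6.79 CPM with 1 µg/ml, 9.8, 6.95 and 7.16 with 10 µg/ml, and 5.73, 5.67 and 6.03 with 100 µg/ml. All 9 were below all untreated libraries, and the comparisons were called lower at each dose (edgeR adjusted p 0.0014, 0.00294 and 5.49e-05). No library was taken between 0 and 2 h, so an earlier rise and fall was not measured. At 24 h Fos was at 10.1 to 15.3 CPM and no comparison was called.

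At 48 h Fos had 60.3, 48.1 and 42.5 CPM with 1 µg/ml, 44.2, 47.2 and 56.7 with 10 µg/ml, and 34.7, 29.9 and 36.4 with 100 µg/ml. The lowest of these 9 libraries was above every library of every other time. The log2 differences from untreated cells were 1.73 ± 0.15, 1.7 ± 0.16 and 1.15 ± 0.17 (edgeR adjusted p 7.74e-13, 2.15e-12 and 2.53e-07). At 72 h the 9 libraries had fallen back to 7.4 to 13.6 CPM, all below the untreated ones. Only the difference at 100 µg/ml was called there (-0.9 ± 0.22, adjusted p 0.000604), and those at 1 and 10 µg/ml were -0.44 ± 0.2 and -0.29 ± 0.19 (adjusted p 0.0898 and 0.257).

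Jun, the main partner of the FOS proteins, rose slightly at 2 h and strongly at 48 h. Untreated libraries had 76.2, 71.6 and 79.2 CPM. At 48 h the libraries had 193, 186 and 200 CPM with 1 µg/ml, 174, 212 and 210 with 10 µg/ml, and 125, 127 and 148 with 100 µg/ml. All 9 lay above all libraries of the other times, and the highest dose lay below the lower doses. The log2 differences were 1.35 ± 0.1, 1.39 ± 0.1 and 0.81 ± 0.11 (edgeR adjusted p 3.94e-15, 1.87e-15 and 1.74e-08). At 2 h the differences were 0.38 ± 0.11, 0.52 ± 0.11 and 0.22 ± 0.11, of which those at 1 and 10 µg/ml were called (adjusted p 0.0215 and 0.000429) and that at 100 µg/ml was not (adjusted p 0.302). The call at 1 µg/ml was lost without its first or second library (adjusted p 0.0739 and 0.151) and without the first or second untreated library (0.0779 and 0.117). At 24 and 72 h no comparison of Jun was called, although 2 at 72 h would be without the second untreated library (-0.26 ± 0.11 at 1 µg/ml and -0.24 ± 0.11 at 10 µg/ml, adjusted p 0.06 and 0.073 with it and 0.0448 and 0.0413 without). Jun shares 689 bases with the antisense gene Junos, which was at 8.88 ± 1.49 CPM in untreated cells and 14.5 ± 2.64, 17.5 ± 1.64 and 16.9 ± 3.27 at 48 h in order of dose (SD, n = 3).

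Junb, a JUN protein with weaker activity on a single site and a rapid serum response, was higher at both 2 and 48 h. Untreated libraries had 80.6, 83.7 and 66 CPM. At 2 h the libraries had 137, 124 and 118 CPM with 1 µg/ml, 153, 124 and 203 with 10 µg/ml, and 90.3, 108 and 98.6 with 100 µg/ml. All 9 were above the untreated libraries, but at 100 µg/ml the difference of 0.37 ± 0.13 log2 missed the threshold (edgeR adjusted p 0.107, and 0.0141 when only the libraries compared were fitted). The differences at 1 and 10 µg/ml were 0.72 ± 0.13 and 1.06 ± 0.13 (adjusted p 0.000104 and 2.08e-08). At 48 h they were 0.56 ± 0.13 and 0.48 ± 0.13 (adjusted p 0.000718 and 0.00386, the second 0.0823 without the third untreated library) and 0.14 ± 0.14 at 100 µg/ml (adjusted p 0.451).

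At 72 h Junb was lower at 1 and 10 µg/ml by small margins: -0.34 ± 0.14 and -0.38 ± 0.14 (edgeR adjusted p 0.0474 and 0.0246). The call at 1 µg/ml was lost without any 1 of its own libraries or without the first or second untreated one (adjusted p 0.0775 to 0.135). That at 10 µg/ml was lost without its first or the third library (0.0536 and 0.0946) and without the first or second untreated one (0.0638 and 0.0705). At 100 µg/ml the difference was -0.27 ± 0.14 (adjusted p 0.121), and adjusted p was 0.0432 without its first library and 0.0394 without the third untreated one. Junb shares 351 bases with Prdx2 on the opposite strand.

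Jund, the JUN protein that is usually expressed steadily and is not a classical immediate early gene, was above its untreated mean in all 12 comparisons, by 0.1 to 0.76 log2, and 9 were called. Untreated libraries had 107, 105 and 122 CPM. Its highest group was 100 µg/ml at 48 h, with 175, 177 and 214 CPM (0.76 ± 0.12, edgeR adjusted p 1.98e-06), and 100 µg/ml at 72 h came next, with 159, 187 and 184 CPM (0.67 ± 0.12, adjusted p 1.46e-05). These 2 groups overlapped each other and neither overlapped the untreated cells. At 2 h the differences were 0.39 ± 0.12, 0.61 ± 0.12 and 0.59 ± 0.12 in order of dose (adjusted p 0.0491, 0.000326 and 0.00136). The first of these overlapped untreated cells (162, 113 and 159 CPM). It was lost without its first or the third library (adjusted p 0.277 and 0.25) and without each untreated library in turn (0.193, 0.2 and 0.0606). At 24 h only 100 µg/ml was called (0.5 ± 0.12, adjusted p 0.00103). At 72 h the difference at 10 µg/ml was 0.39 ± 0.12 (adjusted p 0.00988), with adjusted p 0.0644 without its first library and 0.0743 and 0.0804 without the first or second untreated one. Jund shares 919 bases with the antisense gene Gm11175.

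The order of the 13 groups differed between members. Fos and Jun were highest at 48 h, where the groups at 1 and 10 µg/ml overlapped, and lowest at 2 h (Fos) or 72 h (Jun). Fosb, Fosl1, Fosl2 and Junb were highest at 2 h and 10 µg/ml, followed by 2 h and 1 µg/ml, and these neighbours overlapped in each of the 4 genes. Jund was highest at 48 h and lowest in untreated cells, and every group of Jund overlapped the group next to it in the order.

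Doses were then compared at equal time, where time in culture is shared. Between 10 and 1 µg/ml none of the 7 genes was called at any time by edgeR. DESeq2 called none either, but it gave no adjusted p for Fosb at 2 h. The 28 log2 differences ran from -0.4 (Fosb at 72 h, with 0 counts in a library of 10 µg/ml) to 0.81 and the lowest adjusted p was 0.21, while 0.839%, 0.0485%, 0.208% and 0% of all tested genes were called at 2, 24, 48 and 72 h. With 1 library left out these calls over all genes ranged as low as 45 at 2 h (121 with all), from 0 to 168 at 24 h (7 with all) and from 1 to 73 at 48 h (30 with all). At an unadjusted p under 0.05 there were 4: Fosb, Fosl2 and Junb at 2 h (0.54 ± 0.2, 0.34 ± 0.11 and 0.34 ± 0.12) and Fosl1 at 24 h (0.81 ± 0.38), all higher at 10 µg/ml. Without the second library at 10 µg/ml and 2 h the adjusted p of Junb was 0.0471. A p that misses the threshold does not show that these doses act alike.

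The highest dose gave lower levels of most members than the mean of the lower doses at 2 and 48 h. At 2 h 4 genes were lower and none higher, where 2.89% of all tested genes were lower and 1.24% higher (596 calls in all, and 358 or 323 without the first or the third library at 100 µg/ml). Fosb and Fosl1 were each lower by -0.87 (SE 0.2 and 0.13, edgeR adjusted p 0.00495 and 4.3e-06), Fosl2 by -0.61 ± 0.1 (adjusted p 5.26e-05) and Junb by -0.52 ± 0.11 (adjusted p 0.00209). The libraries of Fosl1, Fosl2 and Junb did not overlap between these doses and those of Fosb did. Adjusted p was 0.104 for Fosb without the third library at 100 µg/ml and 0.0509 for Junb without the first. Fos was -0.45 ± 0.23, Jun -0.23 ± 0.092 and Jund 0.09 ± 0.1 (adjusted p 0.385, 0.16 and 0.734).

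At 24 h Fosl2 was lower at 100 µg/ml (-0.44 ± 0.1, edgeR adjusted p 0.0019) and Jund higher (0.36 ± 0.1, adjusted p 0.0114), where 8.79% and 5.74% of all genes were called in those directions (2095 in all, and 1294 without the third library at 100 µg/ml). The call of Jund was lost without the second or the third library at 100 µg/ml (adjusted p 0.14 and 0.0645). At 48 h 4 genes were lower and none higher, against 8.43% and 5.46% of all genes (2002 in all, and 1217 or 1238 without the second or the third library at 100 µg/ml). They were Fos (-0.57 ± 0.12, adjusted p 0.000858), Jun (-0.55 ± 0.086, adjusted p 6.25e-06), Fosl2 (-0.5 ± 0.11, adjusted p 0.000957) and Junb (-0.38 ± 0.12, adjusted p 0.0206). The call of Junb was lost without the second or the third library at 10 µg/ml (adjusted p 0.055 and 0.054) and without the first or the third at 100 µg/ml (0.0764 and 0.13). The summed macrophage markers at 48 h (10 genes, 5 called lower) were 545 to 602 CPM at 100 µg/ml and 625 to 754 at the lower doses. The cell cycle genes (8 genes, 7 called lower) were 204 to 222 against 289 to 331. Epithelial markers (7 genes, 1 called lower) were 123 to 140 against 154 to 183. Fibroblast markers (8 genes, 3 called lower and 1 higher) were 7260 to 7620 against 7560 to 8790. Endothelial markers (6 genes, 3 called lower) were 38.1 to 58.9 against 65 to 75.5, mural markers (6 genes, 1 called lower) 57.8 to 68.5 against 69.3 to 89.8, and mesothelial markers (4 genes, 1 called lower) 240 to 294 against 276 to 405. The part of any of these in the differences of the AP-1 genes was not tested.

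At 72 h Jund was the 1 gene called, higher at 100 µg/ml (0.35 ± 0.1, edgeR adjusted p 0.0128), where 6.6% of all genes were higher and 8.3% lower (2149 in all, and 1405 without the second library at 100 µg/ml). This was lost without the second or the third library at 100 µg/ml (adjusted p 0.101 and 0.0744). Fos was -0.54 ± 0.2 (adjusted p 0.0715, and 0.0412 without the third library at 1 µg/ml). The change over time of this dose difference was tested by an F test of the interaction, which called 10.6% of all tested genes and 4 members: Jun (adjusted p 0.000254), Fosl1 (0.00284), Junb (0.0293) and Fosl2 (0.042). The call of Fosl2 was lost in 24 alternatives, which were most of those run, and that of Junb in 8. The dose difference of Fos, Fosb and Jund was not shown to vary with time (adjusted p 0.701, 0.805 and 0.43).

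**Figure D2:**
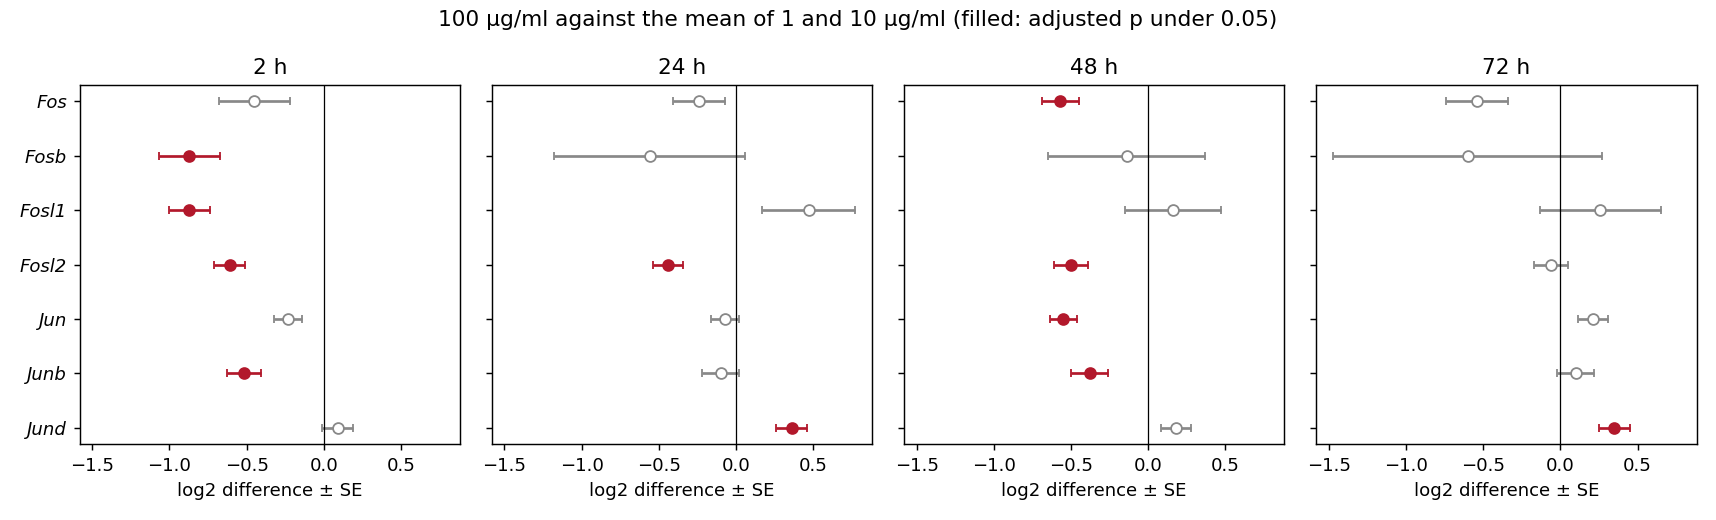
Log2 difference of 100 µg/ml from the mean of 1 and 10 µg/ml for the 7 genes at each time, with its SE as the bar; filled points have an edgeR adjusted p under 0.05. Fosb, Fosl1, Fosl2 and Junb lie below 0 at 2 h, Fos, Fosl2, Jun and Junb at 48 h, and Jund lies above 0 at 24 and 72 h.

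Steps between times were taken over the 3 doses, with 9 libraries a time. All were treated, so a change belongs to time after addition and to time in culture together. Any handling that differed between times cannot be told apart from these. From 2 to 24 h 6 members fell and Fos rose, where 28.6% of all tested genes fell and 29.3% rose. Fosb fell by 4.37 ± 0.22 and Fosl1 by 4.07 ± 0.13 on the log2 scale (edgeR adjusted p 4.86e-22 and 8e-30), and Junb by 0.73 ± 0.074 (1.24e-11). Fosl2, Jun and Jund fell by 0.43, 0.3 and 0.27. Fos rose by 0.82 ± 0.13 (adjusted p 3.5e-07), with 5.67 to 9.8 CPM at 2 h and 10.1 to 15.3 CPM at 24 h.

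From 24 to 48 h 4 members rose and none fell, against 12.8% and 12.1% of all genes. Fos rose by 1.78 ± 0.092 and Jun by 1.11 ± 0.058 (edgeR adjusted p 2.59e-20 and 3.31e-20), with no overlap between the 9 libraries of each time. Junb rose by 0.41 ± 0.076 and Jund by 0.38 ± 0.069. Fosb was 0.86 ± 0.36 (adjusted p 0.0776, and 0.0321 without the second library at 1 µg/ml and 48 h).

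From 48 to 72 h all 7 fell and none rose, against 8.27% and 8.38% of all genes. Fos fell by 2.07 ± 0.097 and Jun by 1.37 ± 0.06 (edgeR adjusted p 5.39e-22 and 3.8e-23), and Junb by 0.72 ± 0.079. The libraries of these 3 genes did not overlap between the times. Fosb fell by a fitted 1.7 ± 0.42, with 0 to 3 counts per library at 72 h and 1 to 8 at 48 h, Fosl1 by 0.89 ± 0.23, Fosl2 by 0.27 ± 0.071 and Jund by 0.21 ± 0.069 (adjusted p 0.00309, 0.00444, 0.00498 and 0.0285). The call of Jund was lost without any 1 of 5 libraries: the first at 1 µg/ml and 72 h, the second at 10 µg/ml and 48 h, the third at 10 µg/ml and 72 h, the third at 100 µg/ml and 48 h, or the first at 100 µg/ml and 72 h (adjusted p 0.0679 to 0.122). Over the same step the summed macrophage markers rose from 545 to 754 CPM to 867 to 1500 CPM. At 48 h 10, 10 and 9 of these 10 markers were already called higher than in untreated cells in order of dose. The part of such cells in the levels of Fos and Jun was not tested.

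**Figure D3:**
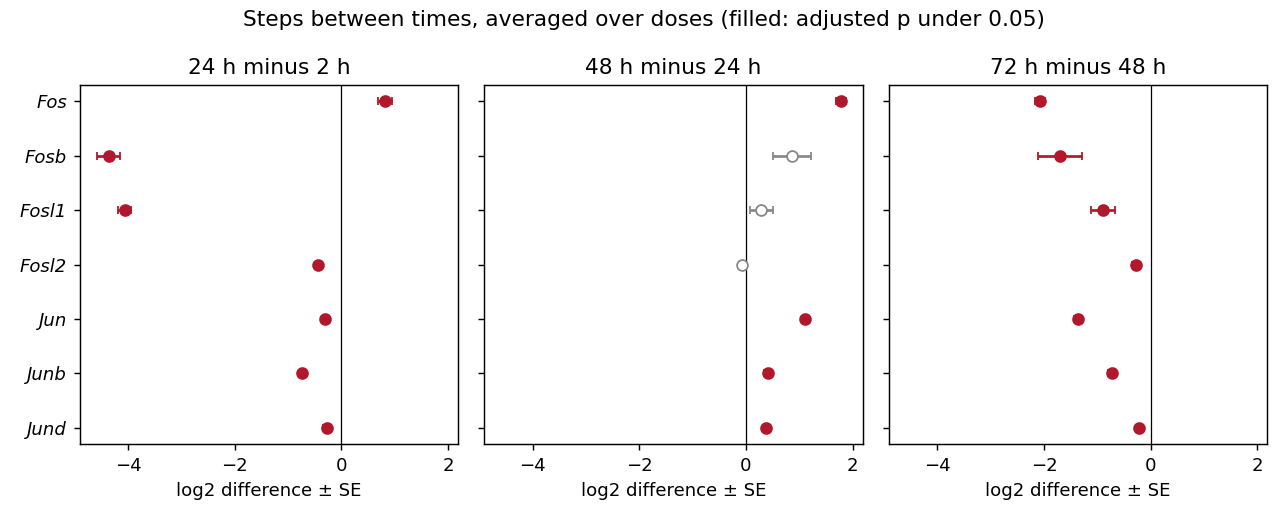
Log2 difference between neighbouring times over the 3 doses for the 7 genes, with its SE as the bar; filled points have an edgeR adjusted p under 0.05. Fosb and Fosl1 fall by more than any other member from 2 to 24 h, Fos and Jun rise most from 24 to 48 h, and all 7 lie below 0 from 48 to 72 h.

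Other genes of the pathway were read from lists, of which the counts of tested genes are given with the same calls. The lists were chosen with earlier results of these data known, so their counts are a description and not an independent test. For every list the shares of all tested genes are the background, here in order of dose. At 2 h 4.28%, 7.64% and 3.14% were higher and 1.87%, 5.1% and 2.02% lower. At 48 h 16%, 17% and 19.1% were higher and 17.1%, 17.5% and 20.9% lower. At 72 h 18.1%, 19.3% and 22.5% were higher and 20.1%, 20.6% and 23.3% lower. The 19 tested other immediate early genes were all higher at 2 h at 1 and 10 µg/ml, and 15 were higher and 1 lower at 100 µg/ml. The largest differences at 10 µg/ml were those of Nr4a3, Nr4a1 and Egr3, genes for nuclear receptors and a zinc finger factor (6.07, 4.64 and 4.02 log2). At 48 h 17, 17 and 14 of the 19 were higher in order of dose and 2, 1 and 1 lower. At 72 h 8 were lower at each dose, among them Myc, Ccn1 and Ccn2, and 0, 1 and 2 were higher. Fos was called lower at 2 h at 1 and 10 µg/ml, where none of these 19 genes was.

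Of 10 tested dimer partners, 4, 6 and 4 were higher at 2 h in order of dose and none was lower. Atf3, a stress-induced partner of JUN proteins, was 2.11 ± 0.28, 2.62 ± 0.27 and 3.03 ± 0.26 higher, and at 2 h it was higher at 100 µg/ml than at the lower doses by 0.67 ± 0.16 (edgeR adjusted p 0.00683), opposite to Fosb, Fosl1, Fosl2 and Junb. Maff and Mafk, small MAF proteins, were 1.56 ± 0.12 and 1.13 ± 0.15 higher at 10 µg/ml. At 48 h 7, 6 and 8 partners were higher and 1, 0 and 0 lower.

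Among 20 tested upstream kinases and factors, 4, 4 and 1 were higher at 2 h and none was lower. The 1 at 100 µg/ml was near the share of all genes. Srf, which encodes serum response factor, was higher by 0.56 ± 0.13, 0.92 ± 0.13 and 0.58 ± 0.14 at 2 h and by 1.54 ± 0.12, 1.61 ± 0.13 and 0.83 ± 0.13 at 48 h. From 48 to 72 h Srf fell by 1.71 ± 0.076 (edgeR adjusted p 5.89e-23), and at 48 h it was lower at 100 µg/ml than at the lower doses (-0.74 ± 0.1, adjusted p 8.66e-07), as were Fos and Jun. Of 12 tested genes of AU-rich mRNA decay, 2, 4 and 3 were higher at 2 h in order of dose and 0, 0 and 1 lower. Zfp36l2 was higher by 1.44 ± 0.12, 1.75 ± 0.12 and 1.32 ± 0.12. Zfp36, which encodes tristetraprolin, a protein that promotes decay of mRNAs with AU-rich elements, was higher by 1.47 ± 0.18, 1.39 ± 0.18 and 1.04 ± 0.19 at 48 h.

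Of 19 genes described as AP-1 targets, all tested, 10, 11 and 5 were higher at 2 h and none was lower. Ccl2, a monocyte chemokine, was higher by 2.09 ± 0.13, 2.25 ± 0.13 and 1.62 ± 0.13. Ptgs2, the inducible cyclooxygenase, was lower at 100 µg/ml than at the lower doses by -1.61 ± 0.12 (edgeR adjusted p 8.76e-14). At 48 h 9, 8 and 4 were higher, against 16%, 17% and 19.1% of all genes. The lower ones were 5, 5 and 9, against 17.1%, 17.5% and 20.9%. The 4 higher at 100 µg/ml were near the share of all genes, and the 5 lower at 1 and 10 µg/ml were not far above it. Both directions were called at 24 and 72 h too. At 24 h 1, 2 and 3 were higher, against 10.9%, 12.5% and 16.8% of all genes. The lower ones were 7, 9 and 12, against 14.3%, 15.3% and 19.9%. At 72 h 7, 7 and 4 were higher, against 18.1%, 19.3% and 22.5%. There 8, 7 and 10 were lower, against 20.1%, 20.6% and 23.3%. Calls in both directions were thus not particular to 48 h, where Fos and Jun were highest. At 48 h Mmp9, a gelatinase, was 1.88 ± 0.66, 1.78 ± 0.68 and 3.53 ± 0.54 higher (edgeR adjusted p 0.024, 0.0383 and 5.88e-07). Its SE was thus large and the calls at 1 and 10 µg/ml were near the threshold. Hbegf, an epidermal growth factor family ligand, was -1.67 ± 0.22 and -1.58 ± 0.22 at 1 and 10 µg/ml and 48 h.

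**Figure D4:**
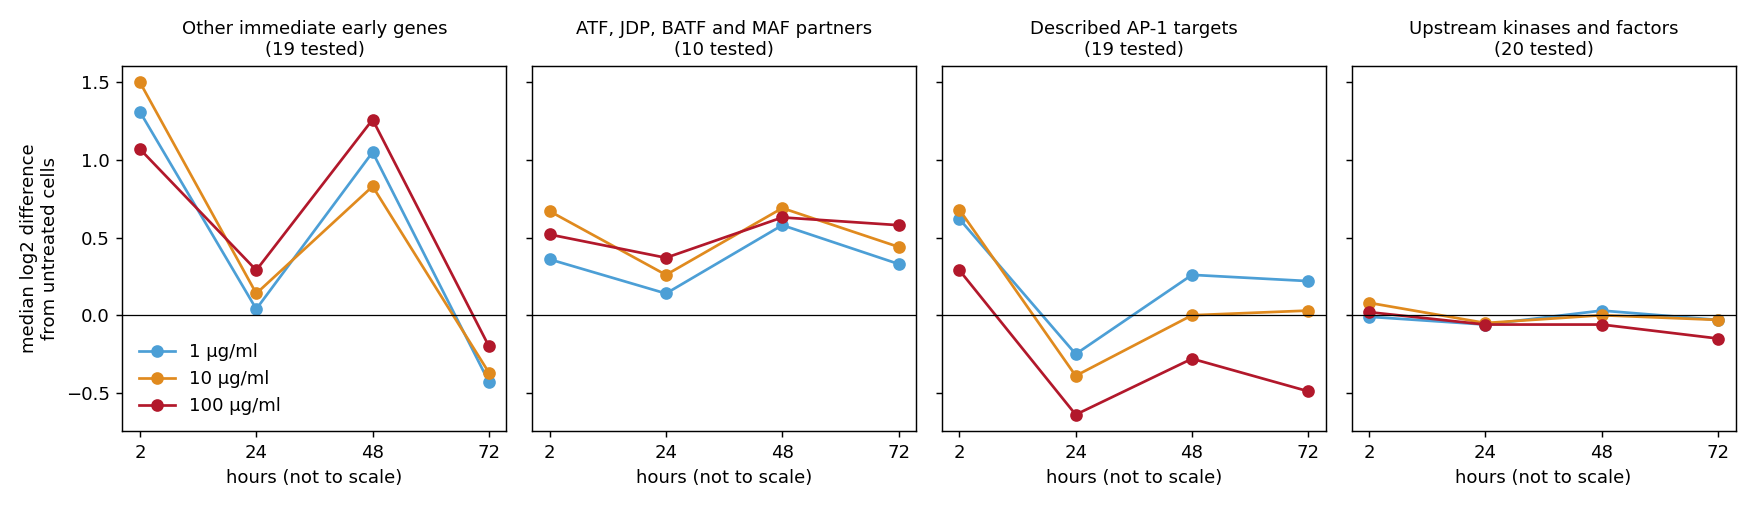
Median log2 difference from untreated cells of the tested genes of 4 lists, by hours after C1q (spaced evenly) and dose. The other immediate early genes have medians of 1.31, 1.5 and 1.07 at 2 h and 1.05, 0.83 and 1.26 at 48 h in order of dose, and medians below 0 at 72 h.

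Likeness of pattern was described by Pearson's r over the 13 group means of log2 CPM, which share the same libraries. Among the members, Fosb and Fosl1 were most alike (r = 0.972), Junb was near Fosb (0.852) and Fosl2 (0.85), and Jun was nearest to Fos (0.772). The lowest value was that of Fos with Fosl1 (-0.457), although both fell from 48 to 72 h. Jund was near none of them (0.517 at most, with Jun). Over 10297 eligible genes the most alike to Fosl1 was Mapk6 (0.99), an atypical MAP kinase, followed by Btbd3 and Frmd4a. Mapk6 was also the most alike to Fosb (0.982), before Foxf1 and Stk40. For Fos they were Filip1l (0.942), Klf7 (0.918) and Bcl6 (0.896). For Jun they were Arid5b (0.951), Srf (0.934) and Traf5 (0.918), and for Junb they were Ier3 (0.973), Frmd6 (0.963) and Abl2 (0.959). Fosl2 was most like Il1rl2 (0.921), Chst11 and Arhgap42, and Jund most like Trio (0.924), Zfp697 and Pptc7. Over the 39 libraries the value for Trio was 0.548 and that for Mapk6 with Fosl1 was 0.974.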

How the data were processed

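The authors deposited whole-number counts per gene for 39 libraries made by 5′-end sequencing of poly(A) RNA. Per the submitters' processing notes, cutadapt 2.1.0, Bowtie2 2.4.2 and GRCm38 were used. Which tool and annotation gave the counts, and whether strand or molecular identifiers were used, is not given in the sources used here. 9 columns with a variant spelling were matched to samples by their serial number. All 39 libraries entered 1 edgeR 4.0.16 fit (R 4.3.3) with a mean per group, TMM scaling and edgeR's filter on low counts, and 24 comparisons were tested. P-values were adjusted by Benjamini-Hochberg over the 14419 genes tested. The SE is the absolute log2 difference over the root of F. CPM values are TMM-scaled. Replicate numbers follow accession order and pair nothing. Replicates differed by more than counting noise (chi-square per degree of freedom 1.31 to 8.48 over 39 pairs). The script was tested on simulated data. Named list genes are those called and among the 3 largest differences of their list, and likeness used genes with mean log2 CPM of at least 3. Alternatives were DESeq2 1.42.0, its size factors, no filter, a robust fit, a fit of only the libraries compared, and each library left out. The members and lists were chosen with earlier results of these data known. Figures used matplotlib 3.10.9.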

Additional observations from a re-analysis of the deposited data

Results flagged for a closer look

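For 4 of the 7 genes, the difference between 100 µg/ml and the mean of the lower doses varied with time by the F test of the interaction in edgeR. The adjusted p was 0.00284 for Fosl1, whose log2 difference was -0.87 ± 0.13 at 2 h and 0.47 ± 0.3, 0.16 ± 0.31 and 0.26 ± 0.39 at 24, 48 and 72 h. It was 0.000254 for Jun, with -0.23 ± 0.092, -0.07 ± 0.091, -0.55 ± 0.086 and 0.21 ± 0.096 in order of time. Junb had 0.0293, with -0.52 ± 0.11, -0.1 ± 0.12, -0.38 ± 0.12 and 0.1 ± 0.12. Fosl2 had 0.042, with -0.61 ± 0.1, -0.44 ± 0.1, -0.5 ± 0.11 and -0.06 ± 0.11. The call of Fosl2 was lost in 24 alternatives, most of those run (adjusted p up to 0.12). Among them were DESeq2, its size factors, no filter and a fit of only the libraries compared. The call of Junb was lost in 8, each with 1 library left out (up to 0.123), while those of Fosl1 and Jun held in all that were run.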

How the results depend on the processing

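No member's called difference changed sign in any alternative. Counts of called members that moved by more than 1.5 times did so as follows. At 72 h and 1 µg/ml the 2 called members became 1 with DESeq2's size factors and 1 with DESeq2. With each library left out in turn, the counts ranged from 1 to 2 at 24 h for 10 and for 100 µg/ml, and from 1 to 2 at 72 h for 1 µg/ml. They ranged from 1 to 3 at 72 h for 10 µg/ml and from 0 to 1 for 10 against 1 µg/ml at 2 h. For 100 µg/ml against the lower doses they ranged from 1 to 2 at 24 h and from 0 to 2 at 72 h, and for the interaction from 2 to 4. Over all tested genes, the count for 10 against 1 µg/ml went from 121 to 50 at 2 h when only the libraries compared were fitted. It went from 7 to 81 at 24 h without the filter, to 2 with the robust fit and to 1 with only the libraries compared. At 48 h it went from 30 to 78, 1 and 0 under the same settings and to 15 with DESeq2, and at 72 h from 0 to 7 without the filter. The count for 100 µg/ml against the lower doses at 2 h went from 596 to 385 with only the libraries compared. Fosl1 at 100 µg/ml and 48 h was not called without the filter (adjusted p 0.073), with only the libraries compared (0.0628) or with DESeq2 (0.0944), nor at 1 µg/ml with DESeq2 (0.0583). DESeq2 also missed Junb at 1 µg/ml and 72 h (0.085), Fosl2 at 10 µg/ml and 48 h (0.0504), Jund at 1 µg/ml and 2 h (0.0574) and Jund from 48 to 72 h (0.0505). Without the filter, Jun at 1 µg/ml and 2 h was not called (edgeR adjusted p 0.0533). With DESeq2's size factors, Jund at 1 µg/ml and 2 h and Junb at 1 µg/ml and 72 h were not called (edgeR adjusted p 0.0517 and 0.0578). For 10 against 1 µg/ml, leaving out a library gave 77, 45 and 67 calls over all genes at 2 h without the first or second library at 1 µg/ml or the third at 10 µg/ml. At 24 h it gave 0 and 168 without the second or the third library at 1 µg/ml and 4 without the first at 10 µg/ml. At 48 h it gave 2, 3 and 9 without each library at 1 µg/ml and 1, 73 and 68 without each at 10 µg/ml. Of the 230 counts of list genes called higher or lower, 38 moved by over 1.5 times without the filter, 34 with DESeq2, 22 with only the libraries compared, 9 with the robust fit and 6 with DESeq2's size factors, as did 238 of 1860 with a library left out. The cause of these changes was not tested. A fit of only the libraries compared gave no value for Fosb in most comparisons outside 2 h and none for Fosl1 in some at 72 h, because too few counts passed its filter, and DESeq2 gave no adjusted p for Fosb in 10 against 1 µg/ml at 2 h. Totals of 1806106 to 3012518 counts left Fosb at 8 counts or fewer per library outside 2 h. No paired analysis was possible because the labels give the groups no shared replicate numbers.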
